A study of Drosophila melanogaster with 6 samples.

Results

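Distal intergenic Drgx intervals are stretches of the fly genome, listed in a Targeted DamID study of Drgx in T4/T5 neurons, that lie outside every annotated gene and far from any protein-coding gene. They were chosen by position alone: the midpoint of the interval lay in no gene of any biotype in the Release 6 RefSeq table and was over 5 kb from the nearest end of a protein-coding gene. By this rule 368 of the 2394 intervals on 6 arms (X, 2L, 2R, 3L, 3R and 4) were distal, or 15.4%. The list held 2396 intervals in all, and the 2 on Y were not used.

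The intervals came from Targeted DamID, in which a bacterial methylase called Dam is expressed in chosen cells and marks GATC motifs near the DNA it reaches, either free or carried by a fused protein. T4/T5 neurons are the direction-selective cells of the fly optic lobe. The design set 3 samples with the transgene UAS-Dam against 3 with UAS-Dam-DRGX. All 6 also carried the reporter UAS-CD8-GFP, the temperature-sensitive repressor tubGal80ts and the driver R23G12-Gal4. Animals grew at 18 °C to the L3 larval stage and then spent 24 h at 29 °C. Expression rested on a single Gal4 line in dissected whole brains, and since the list holds no expression values the labelled cell type was not checked against markers.

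One interval list served the whole series, with a score and a false discovery rate for each interval that are the authors' own. It names neither samples nor groups, and that it sets Dam-Drgx against Dam is an assumption from the design. No interval had a value per library, so neither read depth nor replicate error could be attached to it. Every comparison below is therefore a description of 1 list without a test between conditions, and the intervals given with shares and densities cover counting error only. Intervals also clustered, so counting error understates the uncertainty of densities. The score has 2 decimals and no stated scale, so it serves here for description and ranking inside this list alone.

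Drgx is a Paired-like homeodomain protein, a class of transcription factor that contacts short AT-rich DNA words. Transcription factors of this kind act at promoters and also at enhancers, which can lie many kilobases from the gene they regulate. Developmental genes of flies often sit beside long stretches of non-coding DNA that hold such enhancers. A flanking gene is here only the protein-coding gene next to an interval on the chromosome, since a position does not show which gene an interval acts on. The gene table gives no strand, so upstream and downstream sides were not told apart, and no genome sequence was used.

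The distal intervals covered 695 kb, which corresponds to 3.59% of the 19.35 Mb of sequence that met the distance rule. Their midpoints lay a median of 10.29 kb from the nearest protein-coding gene end, with quartiles of 7.07 and 15.77 kb and a range from 5.03 to 54.19 kb. Close to the threshold, the 3 nearest members lay 5031, 5066 and 5095 bp from a coding gene end with scores of 2.68, 2.42 and 3.94. The 3 intergenic intervals just short of it lay at 4924, 4925 and 4954 bp with scores of 2.30, 4.06 and 3.50. Of the 368 members, 339 lay outside genes along their whole width, and 29 reached into a gene with an edge.

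The density of intervals was compared between position classes, counting intervals per megabase of sequence that belongs to the class. Distal sequence carried 19.0 intervals per Mb (exact Poisson 95% interval 17.1 to 21.1). Intergenic sequence between 500 bp and 5 kb from a coding gene end carried 30.5 per Mb (27.7 to 33.5). Coding gene bodies carried 16.9 per Mb (15.98 to 17.8), and sequence within 500 bp of a coding gene end carried 11.9 per Mb (10.5 to 13.5). Taken over whole arms, distal sequence thus held fewer intervals per Mb than the intergenic sequence nearer to genes.

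This order depended on the part of the chromosome arm. Long gaps between genes were frequent toward the centromere, where the arms pass into gene-poor heterochromatin. The 5 Mb of annotated sequence at the centromere side of each arm, a limit chosen after seeing the data, held 43.8% of all distal sequence but only 40 distal intervals, or 4.72 per Mb. The other 328 distal intervals, 89.1% of the total, lay in 10.8 Mb at a density of 30.3 per Mb (27.1 to 33.7). Chromosome 4, with 21 intervals of the list and 0 distal ones, was also left out of all values given without these 5 Mb. Nearer intergenic sequence outside the centromere side had 32.9 per Mb (29.8 to 36.3), so the counting intervals of both intergenic classes overlapped. Coding gene bodies there had 18.6 per Mb (17.5 to 19.7) and gene ends 11.4 per Mb (9.91 to 13.1). How well reads map near the centromere and how many GATC motifs the classes hold was not tested.

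**Figure D1:**
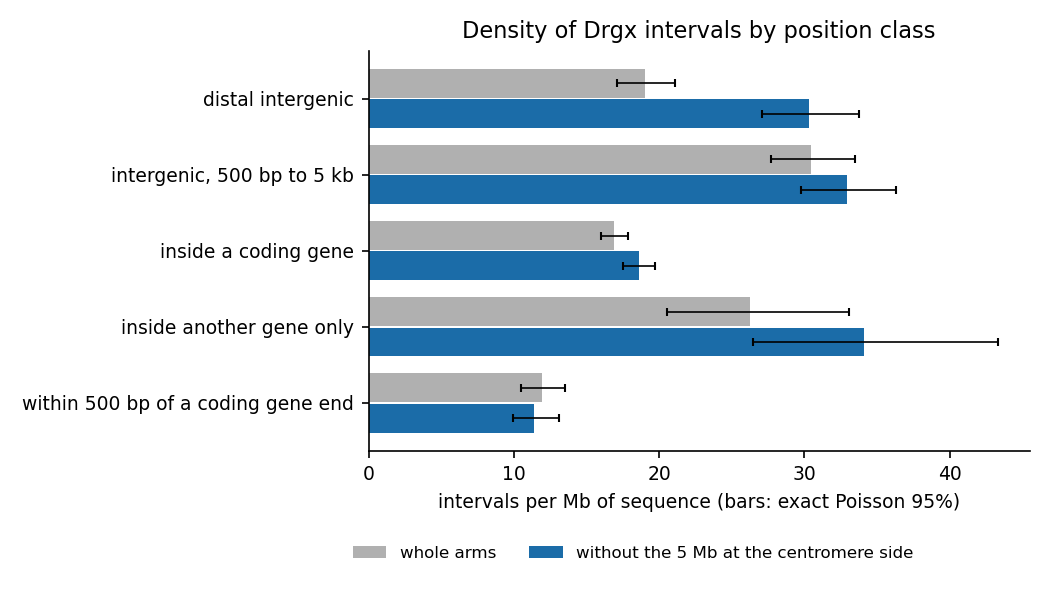
Density of Drgx intervals in 5 position classes, as intervals per Mb of sequence of the class, over whole arms (grey) and without the 5 Mb at the centromere side (blue), with exact Poisson 95% intervals. Distal sequence moved from 19.0 to 30.3 per Mb between these settings, whereas gene ends stood at 11.9 and 11.4 per Mb. Chromosome 4 is part of the grey bars only.

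Among the arms, 3L held 107 distal intervals, 3R 93, 2L 78, 2R 46 and X 44, and chromosome 4, with 0.035 Mb of distal sequence, held 0. As a share of the intervals of the arm, distal ones made up 20.4% on 3L and 18.2% on 2L, against 10.9% on 2R and 12.02% on X. Per Mb of distal sequence over whole arms, the 5 large arms ranged from 10.7 on 2R to 28.1 on 3R. Without the centromere side they ranged from 23.3 on X (exact Poisson 95% interval 16.0 to 32.7) to 36.2 on 3L (29.6 to 43.8), with 26.2 on 2R and 29.8 on 3R, and all 5 intervals overlapped. Median scores per arm ranged from 2.52 on X to 2.90 on 3L.

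Distal intervals had scores like those of the rest of the list. Their median was 2.75 (95% interval of the median 2.64 to 2.91, from binomial order statistics), with quartiles of 2.29 and 3.57 and a range from 1.60 to 6.18. The other 2026 intervals had a median of 2.85 (2.80 to 2.89). Nearer intergenic intervals had a median of 2.92 (2.82 to 3.03), and intervals at gene ends one of 2.75 (2.60 to 2.92). The interval of the distal median overlapped each of these. A score in the top quartile of the list, which begins at 3.62, was reached by 25.3% of all intervals and by 86 distal ones (23.4%, Wilson 95% interval 19.3% to 28.0%). Among the 102 best ranks of the list, ties included, 16 were distal, or 15.7%, next to their share of 15.4% of the list.

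**Figure D2:**
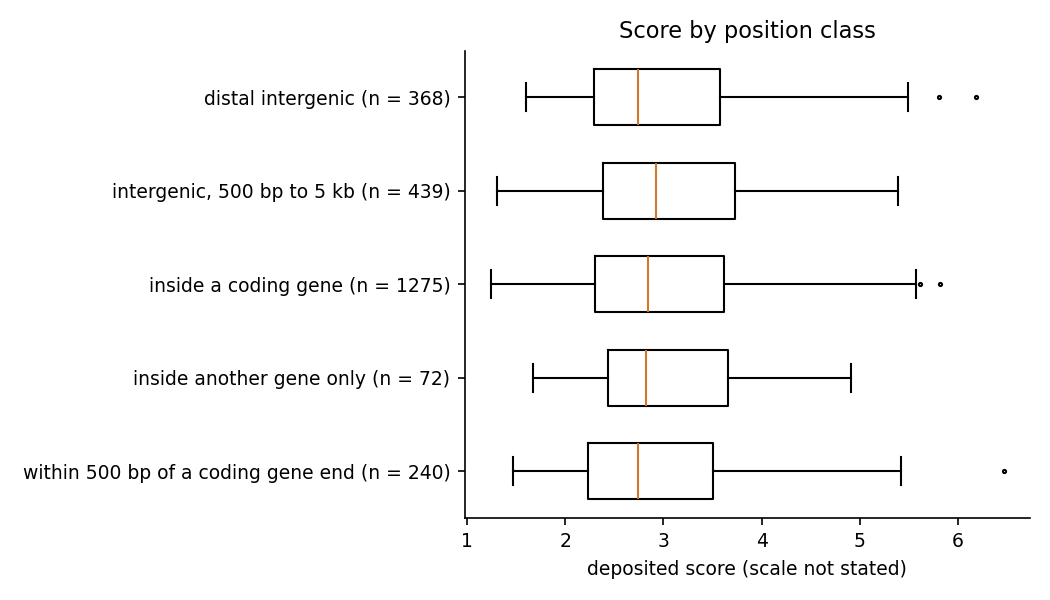
Deposited score of the intervals in 5 position classes, with the median (orange line), quartiles (box), whiskers to the last value within 1.5 box lengths and single points beyond. The medians lie between 2.75 and 2.92, and the distal class reaches 6.18.

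Width was also close to that of the list. Distal intervals had a median width of 1665 bp (1581 to 1844), against 1604 bp (1554 to 1664) in the other intervals. The score was lower in wider intervals in both groups, with a Spearman correlation of -0.48 across the 368 members and -0.43 across the others, given as a description. In 4 width classes of about equal size, the distal median minus that of the others was 0.01 in the narrowest, -0.225 and -0.04 in the middle classes, and -0.05 in the widest. In each class the 95% intervals of both medians overlapped.

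The position within the gap was described by distance from the nearest coding gene. Between 5 and 10 kb lay 178 members (48.4%), between 10 and 20 kb 138, between 20 and 40 kb 45, and beyond 40 kb 7. Over whole arms the density per Mb of distal sequence was 26.6, 24.4, 13.6 and 1.90 in these bins. Without the centromere side it was 29.5, 32.6, 29.0 and 20.8, the last from 7 intervals (8.37 to 42.9 per Mb), so the fall with distance was not seen there. Median scores were 2.76, 2.79, 2.52 and 3.52, and the last of these rests on 7 intervals.

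A gap is the sequence between neighbouring protein-coding genes after overlapping genes were joined, and 992 gaps were long enough to hold distal sequence. Of these, 231 (23.3%) held a distal interval. Most of them, 155, held 1, while 44 held 2 and 32 held 3 or more. In gaps of 10 to 20 kb, 57 of 488 held one (11.7%), and in gaps over 20 to 50 kb 133 of 390 did (34.1%). In gaps over 50 to 100 kb the count was 36 of 81 (44.4%), and above 100 kb it was 5 of 33 (15.2%).

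Gene deserts, defined as gaps of 50 kb or more, numbered 114 and held 102 of the 368 members (27.7%) in 51.7% of the distal sequence. Deserts within 5 Mb of the centromere side and deserts elsewhere differed widely in these counts. Near the centromere side 5 of 59 deserts held a member, with 1.75 members per Mb. Elsewhere 36 of 55 did, with 28.7 members per Mb, a density close to that of shorter gaps (32.9 per Mb in gaps of 10 to 20 kb and 30.3 in gaps over 20 to 50 kb). The median score was 2.70 in deserts and 2.77 in shorter gaps. The longest gap of all, 710.7 kb, held none.

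**Figure D3:**
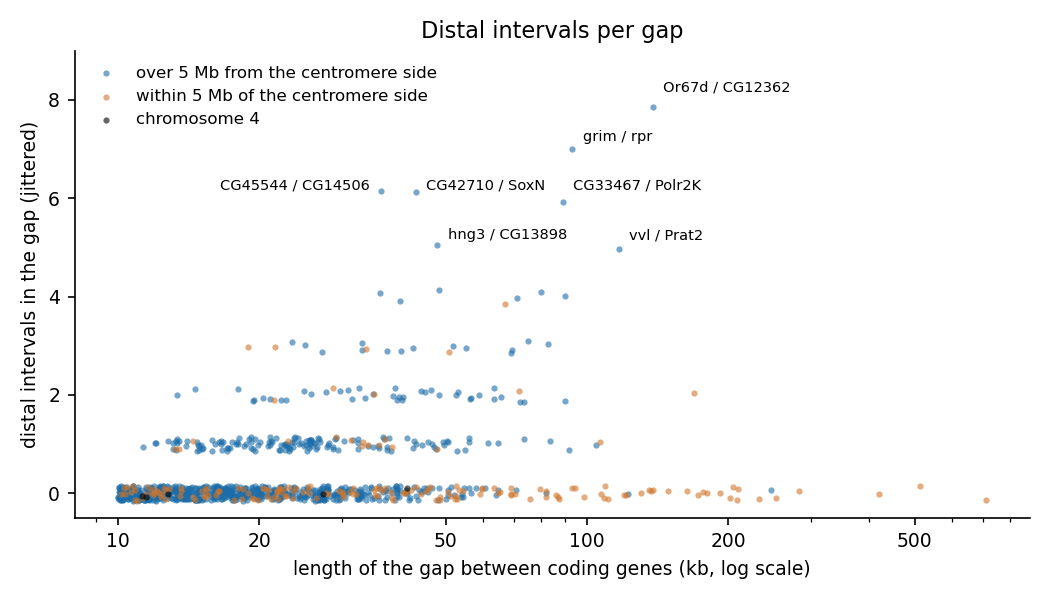
Number of distal intervals in each of the 992 gaps against gap length on a log scale, with gaps over 5 Mb from the centromere side in blue, those within it in orange and those of chromosome 4 in black. The 7 gaps with 5 or more members are named by their flanking genes, and the gaps beyond 200 kb sit at 0.

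The gap with the most distal intervals, 8, separates Or67d, an odorant receptor gene for a male pheromone, from CG12362 on 3L and is 138.2 kb long. It held 17 intervals in all, the rest of them inside non-coding genes or within 5 kb of the ends of the gap, and 9 genes that do not code for protein are annotated there. The scores of its 8 members from left to right were 2.90, 2.88, 3.97, 2.94, 2.02, 2.69, 1.75 and 2.86. They fell into 3 clusters and 1 unclustered member at 46.8 kb from Or67d, with no member between 46.8 and 100.6 kb. Other intervals of the list lay in that stretch, at 57.6, 66.1, 70.6 and 91.1 kb.

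Next came the gap between grim and rpr on 3L, 93.1 kb long, with 7 members and no other interval. Grim and Reaper are small proteins that start programmed cell death by blocking inhibitors of caspases, and skl, the next gene, encodes a related protein. From grim toward rpr the scores were 2.39, 2.08, 1.79, 4.34, 3.26, 3.87 and 3.70, so the 4 farther from grim were all higher than the 3 nearer to it. The highest, at 18345729 to 18346924, lay 41.9 kb from grim and ranked 179 in the list. The adjoining gap between rpr and skl, 40.1 kb long, held 3 more with scores of 4.21, 3.28 and 2.10, the first of them 8.7 kb from rpr. Together rpr was thus flanked by 10 distal intervals, the most of the 433 coding genes beside members.

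SoxN, which encodes a SoxB transcription factor of the neuroectoderm and neuroblasts, was flanked by 9 distal intervals on 2L and had none inside its 4.0 kb gene body. In the 43.1 kb gap toward CG42710 there were 6, with scores of 2.06, 3.10, 4.07, 3.25, 4.06 and 5.49 in the direction of SoxN. The last of these, at 8818024 to 8819052 and 7.1 kb from SoxN, ranked 8 in the list. In the 33.1 kb gap toward CG32986 there were 3, with scores of 4.13, 4.20 and 1.98 going away from SoxN. Of the 9, 5 were in the top quartile of scores.

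A denser group lay between CG45544 and CG14506 on 3R, genes without a given name, where 6 distal intervals fell within 10.2 kb. Their scores were 3.63, 3.63, 2.93, 4.84, 3.60 and 3.50. The interval with 4.84, at 29271972 to 29272321, was 350 bp wide and was followed by the next one after 15 bp. The gap between CG33467 and Polr2K on 2R, 88.7 kb long, held 6 members with scores of 3.94, 2.39, 2.88, 3.27, 2.25 and 3.12. Polr2K encodes a small subunit shared by the nuclear RNA polymerases.

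**Figure D4:**
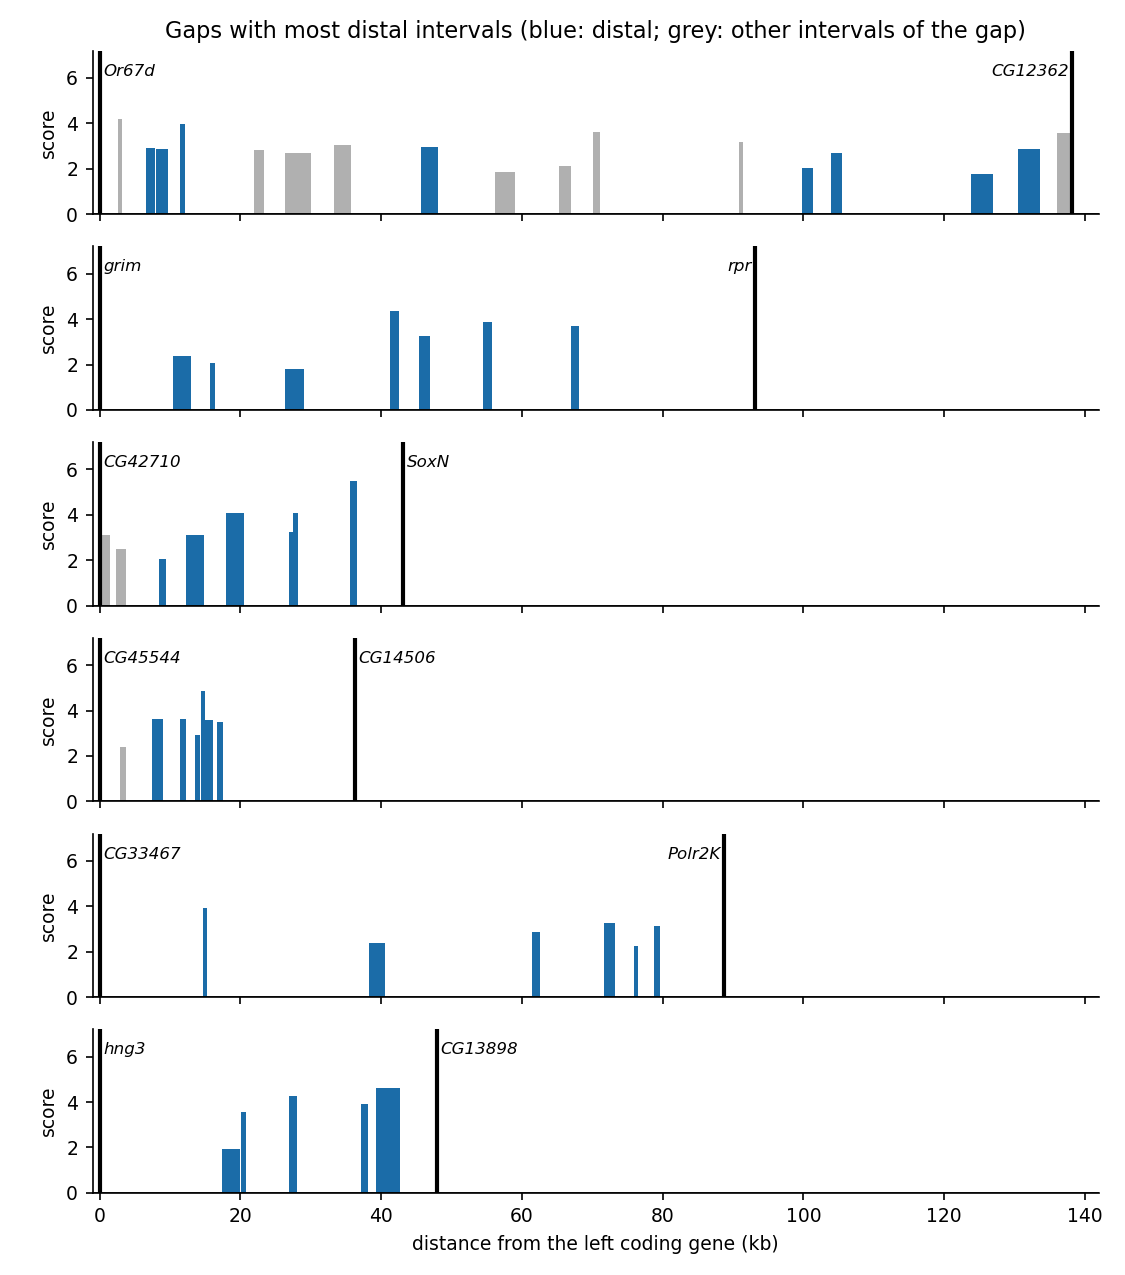
Intervals in the 6 gaps with most distal members, drawn from the left coding gene (0 kb) to the right one (second black line), with bar height as the deposited score and bar width as interval width (at least 0.6 kb for visibility). Blue bars are distal intervals and grey bars other intervals of the gap; the scores between grim and rpr range from 1.79 to 4.34.

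Clusters were defined as runs of members in the same gap with at most 10 kb from edge to edge. There were 64 of them, holding 162 members (44.0%), and 206 members, called lone here, were in no cluster. Intervals of other classes were not counted in clusters, so a lone member can still lie close to one. Of the clusters, 41 had 2 members, 17 had 3 and 6 had 4 or more, with a median span of 9.5 kb and a longest span of 28.1 kb, that of the cluster next to SoxN. Clustered members had a median score of 3.08 and a median width of 1584 bp, against 2.62 and 1811 bp in lone ones. In the top quartile were 29.6% of the clustered and 18.4% of the lone members, against 25.3% of all intervals. The narrower width goes with a higher score throughout the list, and its part in the higher scores of clusters was not tested.

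Neighbours of any class were counted too. Within 10 kb of another interval lay 58.7% of the distal intervals (Wilson 95% interval 53.6% to 63.6%) and 48.9% of the others (46.7% to 51.0%). Nearer intergenic intervals stood at 56.3% (51.6% to 60.8%), gene ends at 37.5% (31.6% to 43.8%), and the 72 intervals inside a non-coding or other gene only at 66.7% (55.2% to 76.5%). At the other extreme, 85 distal intervals had no neighbour within 20 kb. In 10 of the 64 clusters all members carried the same false discovery rate. That rate took only 140 distinct values in the whole list. Within 1 kb of another interval lay 38 distal intervals. With intervals within 1 kb joined, there were 348 members, and 39.7% of them were in clusters. Whether some clusters are single peaks that were split was not tested.

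The cluster of 5 between hng3 and CG13898 on 3L had scores of 1.91, 3.58, 4.25, 3.93 and 4.62. Another member with 4.70 lay on the other side of hng3. Next in size were clusters of 4. One lay between mIF2 and fkh on 3R, where fkh encodes a forkhead factor, with scores of 3.40, 2.77, 3.65 and 3.38, the last of them 8.6 kb from fkh. Another lay between plh and corto on 3R, with scores of 2.01, 3.61, 2.63 and 2.29, and corto encodes a chromatin protein.

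The highest score of the class, 6.18, ranked 2 in the list. This interval, at 414738 to 415665 on 3L, lay 22.6 kb from trh, which encodes a bHLH-PAS factor that specifies the tracheal system, and 17.9 kb from CG13891. A second member of the same gap scored only 2.04. The next scores belonged to an interval 6.9 kb from HGTX, a homeodomain factor of the Nkx6 type active in motor neurons (5.81, rank 4), to the one beside SoxN (5.49), and to one between Prat2 and CG45413 (5.46, rank 10). An interval between CG43401 and CG43402 had 5.01 and another between CG12496 and CG32797 had 4.95.

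Toll-6, a leucine-rich-repeat receptor of the nervous system, had a distal interval with a score of 4.93 at 10.9 kb and a second with 2.73 at 29.9 kb in the same gap. On its other side a member scored 2.02. The nuclear receptor gene tll, which is needed in the optic lobe primordium, had 1 with 4.85 at 5.2 kb, at 30857680 to 30861619 on 3R. An interval between CG43131 and RabGGTa on 3R also scored 4.85.

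The 5 members farthest from any coding gene were spread over 4 gaps. The farthest, 54.2 kb away, lay between vvl, which encodes a POU-homeodomain factor, and Prat2 on 3L, was 6300 bp wide and scored 1.63. That gap of 117.1 kb held 5 members with scores of 3.52, 1.63, 4.08, 2.51 and 2.04, and the nearest of them to vvl was 45.6 kb away. A lone interval between CG6414 and CG43689 on X lay 49.1 kb from a coding gene and scored 4.13, with no other interval of the list within 84364 bp. The others were the unclustered member of the Or67d gap, one between grim and rpr, and the one nearest to vvl.

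The longest gaps with a member included 2 on the centromere side. Between scro, an Nk2-class homeodomain gene with a known role in the optic lobe, and CG40472 on 3L, 2 members with scores of 3.67 and 2.56 lay 6.3 and 15.7 kb from scro and over 150 kb from the other gene. Between spok, an ecdysone synthesis gene, and Parp1 on 3R, a single member scored 2.55.

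Flanking genes were then read against 6 gene lists that cover transcription factors, signalling, cell-surface recognition and ion channels. The 231 gaps with a member were flanked by 433 coding genes, and 82 of these stood on a list. For each list the share is set beside that of the 1203 genes that flank only gaps without a member, since genes next to long gaps differ from the average gene. Homeodomain genes made up 22 of the 433 (5.08%), 2.74% of the 1203 and 0.712% of all 13911 coding genes. Genes of cell-surface recognition and guidance made up 28 (6.47%), 2.33% and 0.805%. Ion channel and transmitter receptor genes made up 9 (2.08%), 0.831% and 0.424%.

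Other transcription factor genes made up 19 (4.39%), against 3.66% of the 1203. Signalling genes were fewer beside members, with 3 (0.693%) against 1.66%, and bHLH genes with 1 (0.231%) against 0.665%. No test was made of these differences, and the lists were drawn from general knowledge.

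Since longer gaps hold members more often, the same was counted over gaps, leaving out chromosome 4 and the 5 Mb at the centromere side. There 25.7% of 807 gaps held a member (Wilson 95% interval 22.8% to 28.8%). Of gaps flanked by a gene of cell-surface recognition or guidance, 31 of 68 did (45.6%, 34.3% to 57.3%). These gaps were longer, with a median of 24.0 kb against 19.2 kb for all gaps. Per Mb of distal sequence they held 35.7 members, against 30.3 in all gaps, a smaller contrast than in the share of gaps. By size class the share was 17.9% against 12.2% of all gaps at 10 to 20 kb, 55.2% (37.5% to 71.6%) against 37.2% over 20 to 50 kb, and 90.9% of 11 gaps against 65.5% above 50 kb. At 10 to 20 kb (7.88% to 35.6%) and above 50 kb (62.3% to 98.4%) the interval included the share of all gaps. Gaps with a homeodomain gene held one in 33.9% of 59 cases (23.1% to 46.6%), a range that includes the share of all gaps. By size class they stood at 5 of 27 gaps, 10 of 25 and 5 of 7, each with an interval that includes the share of all gaps of that size. Gaps with another transcription factor gene stood at 24.6% of 61, and gaps with no listed gene at 132 of 574.

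**Figure D5:**
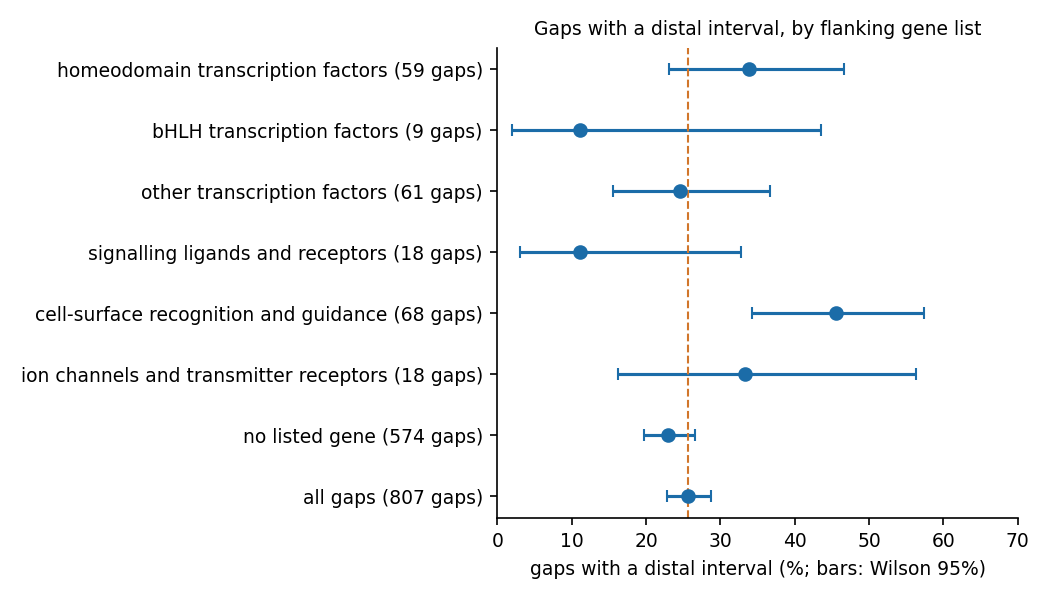
Percentage of gaps that hold a distal interval, over 5 Mb from the centromere side, by the list of a flanking gene, with Wilson 95% intervals and the share of all 807 gaps as a dashed line (25.7%). The point for cell-surface recognition and guidance genes is at 45.6%, and its interval begins at 34.3%. Gap length is not matched here, and per Mb of distal sequence these gaps held 35.7 members against 30.3 in all gaps. Chromosome 4 is not included.

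Among homeodomain genes, members were most frequent beside vvl and hth, with 5 each. The gene hth encodes a TALE-class cofactor that is also an early factor of medulla neuroblasts. Toward Cyp12e1 its 70.9 kb gap held 4, with scores of 4.13, 2.64, 2.37 and 2.80, and the other side held 1 with 1.73. Antp, a Hox gene, had 2 with scores of 4.42 and 2.23, and abd-A, another, had 1 with 4.21 at 10.1 kb. For zfh1 the only member scored 3.94 at 5.1 kb. Members of the top quartile lay beside 9 of the 22 homeodomain genes, against 132 of all 433 flanking genes. B-H1 and B-H2 share 1 such member in this count. Counted by member, 8 of the 35 in gaps beside a homeodomain gene were in the top quartile, a share close to 86 of all 368. Lim1 (3.16 at 18.4 kb) and ap (2.57 at 18.6 kb) had 1 member each, below the top quartile. Of the 22, 12 also had an interval of the list inside the gene body, against 69 of all 433 flanking genes. The 22 genes had a median length of 18567 bp, against 2234 bp for all 433, and length was not matched.

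In 4 gaps with a member both flanking genes stood on a transcription factor list, out of 19 such gaps (background 23.3% of all gaps). In each of the 4 both genes belong to 1 family. Between B-H2 and B-H1 on X, which encode paired Bar-class homeodomain proteins, 2 members scored 1.65 and 4.79. The higher of them, at 17379165 to 17380784, lay 17.5 kb from B-H1. Between Sox21b and D on 3L, both SoxB genes, members with 2.22 and 4.79 were found, the higher one nearer to D. D encodes Dichaete, a temporal factor of medulla neuroblasts. The Iroquois genes caup and mirr had members with 2.39 and 3.37 between them, and the zinc finger genes disco-r and disco shared 1 with 2.59.

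Of the other transcription factor genes, fkh was flanked by 4 members and SoxN by 9. Single members with a score in the top quartile lay beside slp2 (3.80 at 6.8 kb), a forkhead gene of the temporal series of medulla neuroblasts, dmrt99B (3.84 at 9.7 kb) and RunxA (4.15 at 8.0 kb). The BTB zinc finger gene lola had 2, with 3.24 and 4.14. Members also lay beside dac (2.80 at 6.0 kb) and grn (3.33 at 12.3 kb), neither of them in the top quartile. Of the 19 genes, 4 had an interval inside the gene body, and 15 had none, against 69 with one among all 433 flanking genes. The 19 genes had a median length of 8419 bp, against 2234 bp for all 433, and length was not matched.

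Genes of cell-surface recognition and guidance included several families of neuronal adhesion proteins. The gene kek1 encodes a leucine-rich-repeat transmembrane protein that restrains the EGF receptor. It was flanked by 5 members, 4 of them in the 89.7 kb gap toward ACXC with scores of 2.35, 3.87, 2.04 and 2.01. The teneurin gene Ten-m, whose product matches synaptic partners, had members with 4.78 at 23.1 kb and 2.31 at 39.4 kb. The leucine-rich-repeat gene caps had 3 members with scores of 3.02, 2.69 and 4.39.

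Klingon (klg) had 1 member with 4.06 at 11.1 kb, Dscam2 1 with 3.62 at 21.8 kb, robo3 2 with scores of 2.93 and 3.68, and kek2 2 with 2.98 and 3.73. The immunoglobulin-domain gene side-VIII had 4 members, with scores between 1.69 and 3.49. The beat genes beat-Ia, beat-IIIb, beat-IIIc and beat-VI had 1 each, between 1.85 and 2.50, and dpr5 and dpr9 had 2 and 1. Of the 28 genes, 17 also had an interval inside the gene body, against 69 of all 433 flanking genes. The 28 genes are long, with a median of 35957 bp, against a median of 2234 bp for all 433 flanking genes.

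Of the ion channel and receptor genes, nAChRalpha2 and nAChRbeta2, subunits of nicotinic acetylcholine receptors, lie next to each other on 3R and share 1 member, at 24496748 to 24498374, with a score of 3.82. It lay 6.4 kb from nAChRalpha2 and 11.7 kb from nAChRbeta2. Dop2R, a dopamine receptor gene, had 2 members with scores of 2.51 and 2.53. Rdl, a subunit of GABA-gated chloride channels, had 1 with 3.18, and Octbeta2R, an octopamine receptor gene, 1 with 3.48. Among the signalling genes, the Wnt5 receptor gene drl had 3 members with scores from 1.61 to 2.76, Drl-2 had 1 with 3.84 and fng, which encodes a glycosyltransferase that modifies Notch, had 1 with 3.13.

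Whether flanking genes also carried intervals within them was counted for all 433. An interval midpoint lay in the body of 69 (15.9%), against 12.2% of the 1203 genes beside gaps without a member and 6.56% of all coding genes. For the 82 listed genes it was 37 (45.1%), and their median length was 22016 bp. Gene length was not matched in these shares, and the share for listed genes beside gaps without a member is not given here.

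Distances to non-coding genes were counted as well, and by the membership rule no such gene held the midpoint of a member. Within 5 kb of the end of a non-coding gene or pseudogene lay 114 members (31.0%), and for 103 of these the nearest such gene was a lncRNA gene. The median distance over all members was 10.73 kb. Of the 231 gaps with a member, 144 (62.3%) held at least 1 such gene. The other 254 members were over 5 kb from genes of every biotype. The same shares over all distal sequence and over all 992 gaps are not given here. Whether members lie closer to non-coding genes than other distal sequence was not tested.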

How the data were processed

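Each line of the list deposited by the authors gives an interval, a score and a false discovery rate, with no header. The unit of the deposited score is not stated. The false discovery rate is deposited as text in the last column and was read as a number. Per the submitters' processing notes the genome build is BDGP6; the aligner, peak caller, filters and treatment of replicates are not given in the sources used here. Starts were taken as zero-based and 1 was added. Genes came from the RefSeq table of Release 6, with 17673 genes on the 6 arms, of which 13911 are protein-coding; 21 genes placed on both X and Y were left out. Gaps, deserts, clusters and flanking genes were found with pandas 2.3.3, scipy 1.17.1 and numpy 2.4.6 in Python 3.11.15, and figures were drawn with matplotlib 3.10.9. The scripts were first tested on simulated data. No test across intervals was run, because intervals are not replicates; intervals of medians, shares and densities have a 95% level. A planned search for GATC and homeodomain motifs was not run, since no genome sequence was used. Of 520 listed symbols, 519 matched the gene table. Genes named are those beside the 10 highest scores, the 5 gaps and 5 clusters with most members, the 5 longest gaps and 5 farthest members, and listed genes beside 2 or more members or a top-quartile member; other listed genes named were chosen after their values were seen. Members and lists were chosen with earlier results of these data known.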

Additional observations from a re-analysis of the deposited data

How the results depend on the processing

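The number of distal intervals was 612 with a distance of 2 kb, 190 with 10 kb and 172 among the intervals at or above the median score of the list. In the other 11 alternatives it stayed within 1.5 times 368. The difference in median score, distal minus other, was -0.1 and turned to 0.01 in the narrowest width class; that in median width, 61.0 bp, turned to -30.5 bp for the 300 intervals that lie outside genes and over 5 kb from a coding gene end along their whole width and to -20.0 bp in the higher-scoring intervals. The 95% intervals of both groups' medians overlapped for score and for width, and neither difference has a settled direction. The share in deserts was 18.1% with 2 kb, 41.6% with 10 kb, 58.4% with deserts of 30 kb, 4.62% with deserts of 100 kb and 22.6% without arm 3L. The share in clusters was 36.2% with distance to genes of any biotype, 38.95% in the higher-scoring intervals, and 32.6% and 53.5% with cluster distances of 5 and 20 kb. Transcription factor genes made up 9.70% of flanking genes, against 7.07% of the 1203 genes beside gaps without a member. Their share was 13.6% in the higher-scoring intervals, for which no such background is given. Over 5 Mb from the centromere side, gaps with a listed transcription factor gene held 28.4 members per Mb, against 30.3 in all gaps. The density of distal intervals was 23.8, 30.3 and 31.75 per Mb without 2, 5 and 8 Mb at the centromere side, alternatives chosen after seeing the data. Changes with the distance, desert and cluster limits follow from those definitions; for the others the cause was not tested. No paired analysis was possible because the list carries no sample values, so the replicate numbers of the labels could not be used, and leaving out replicates was likewise not run.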
